A study of Mus musculus with 20 samples.

Results

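Zfp is the mouse symbol for zinc finger protein, and the genes described here are the 158 autosomal protein-coding genes, of 20665 in the RefSeq table of GRCm38.p6 (the assembly of mm10), whose symbol is Zfp followed by a number below 500. They were chosen by symbol alone, with no measured value. The symbol is a naming series and not a structural class. Most members encode proteins with C2H2 zinc fingers, small zinc-binding loops that read DNA sequence, while some, Zfp36 among them, carry other kinds of finger. Many C2H2 members also carry a KRAB domain, which recruits the corepressor Trim28 and through it the histone methyltransferase Setdb1, and they are known for silencing transposable elements. Genes of the KRAB type lie in tandem clusters of close relatives. Histone H3 acetylated at lysine 27 (H3K27ac) marks active promoters and enhancers, so a called region at a gene end shows where a Zfp gene itself carries the mark of an active promoter, not where its protein binds.

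The mark was mapped by ChIP-seq in hepatocytes, the metabolic cells that make up most of the liver. There were 5 libraries from old mice (23 months, C57BL/6J), set against 5 from young mice (5 months, C57BL/6N). Age and substrain coincide, so the effects of both cannot be told apart, and every difference between old and young below is also one between substrains. All hepatocytes came from perfused livers, and human chromatin had been added to each preparation. Values scaled to that spike-in were not analysed here, so the total amount of acetylation was not compared. Whether the libraries of an age come from different mice is not stated in the labels, and p-values measure the spread between these libraries, which may be technical.

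The libraries held 6295930 to 15544145 tags and 21213 to 30195 regions. The share of tags inside regions (IP efficiency) was 31.9 ± 4.81% in old and 40.2 ± 6.62% in young libraries (SD, n = 5 each). The estimated fragment length was 620 bp in young library 5 and 414 to 444 bp in the other 9. All 6 hepatocyte markers carried a gene-end region in all 10 libraries, with summed scaled tags of 1547 to 3469 in old and 3985 to 5261 in young libraries, and their median log2 difference was −0.37 with 0 of 6 past the threshold. Among markers of other liver cells, 1 of 5 Kupffer cell genes (Cd68) and 3 of 6 endothelial genes (Stab2, Lyve1, Clec4g) carried a region. So did 1 of 6 stellate (Reln), 2 of 5 cholangiocyte (Sox9, Spp1) and 1 of 6 lymphocyte genes (Cd79a), each in at least 1 library. Over all genes this share was 55.3%. The Kupffer cell gene and 1 cholangiocyte gene carried a region in all 10 libraries. None was called at Adgre1, Clec4f, Csf1r, Marco, Kdr, Pecam1, Col1a1, Krt19, Ptprc or Cd3e. Summed scaled tags of the Kupffer cell list were 183.5 to 309.1 in old and 242.5 to 530.0 in young libraries, and those of the cholangiocyte list 221.6 to 520.1 in old and 253.2 to 580.4 in young libraries. The endothelial list had 0 to 57.8 in old and 0 to 26.3 in young libraries, the stellate list 44.5 to 103.1 in old and 0 to 144.0 in young libraries, and the lymphocyte list 52.4 to 139.6 in old and 0 to 203.5 in young libraries. The part of these differences in any result below was not tested. The libraries hold many cells each, so fewer marked cells and less H3K27ac per cell cannot be told apart.

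A scaled tag is a sequencing tag of a region after the authors scaled each library to 10000000 tags. A gene was called in a library where a region lay within 1 kb of either annotated end, and its level was the sum of scaled tags over those regions. A relative level is that sum divided by the median of the 7239 genes called in all 10 libraries, so 1 is the level of the median such gene in the same library.

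The promoters of 6 members show the range of what follows. Each is the RefSeq sequence of GRCm38.p6 from 250 bases before to 50 after the annotated start, written 5′ to 3′ on the gene's strand. Capitals mark matches, on either strand, to the letters of the GC box (GGGCGG), the CCAAT box (CCAAT), the NRF1 motif (GCGCANGCG) and the other motifs searched below. Zfp36 (chr7:28379179-28379478, minus strand), Zfp91 (chr19:12796074-12796373, minus strand) and Zfp143 (chr7:110061452-110061751, plus strand) are shown because they held 3 of the 4 highest levels of the family. Zfp281 (chr1:136624651-136624950, plus strand) had the lowest log2 difference between ages, Zfp46 (chr4:136285817-136286116, plus strand) the largest difference in calls, and Zfp42 (chr8:43306960-43307259, minus strand) had no call in any library.
Zfp36: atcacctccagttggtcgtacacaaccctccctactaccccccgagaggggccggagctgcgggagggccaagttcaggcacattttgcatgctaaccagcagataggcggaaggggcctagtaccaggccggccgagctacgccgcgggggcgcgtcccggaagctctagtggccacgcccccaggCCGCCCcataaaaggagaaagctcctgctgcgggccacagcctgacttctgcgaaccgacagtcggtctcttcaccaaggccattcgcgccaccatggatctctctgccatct
Zfp91: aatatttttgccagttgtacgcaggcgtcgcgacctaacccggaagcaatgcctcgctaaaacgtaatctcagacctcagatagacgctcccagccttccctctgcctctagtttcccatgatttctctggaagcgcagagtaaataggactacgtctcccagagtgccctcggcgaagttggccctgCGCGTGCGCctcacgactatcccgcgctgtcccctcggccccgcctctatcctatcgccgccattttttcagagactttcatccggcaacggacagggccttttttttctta
Zfp143: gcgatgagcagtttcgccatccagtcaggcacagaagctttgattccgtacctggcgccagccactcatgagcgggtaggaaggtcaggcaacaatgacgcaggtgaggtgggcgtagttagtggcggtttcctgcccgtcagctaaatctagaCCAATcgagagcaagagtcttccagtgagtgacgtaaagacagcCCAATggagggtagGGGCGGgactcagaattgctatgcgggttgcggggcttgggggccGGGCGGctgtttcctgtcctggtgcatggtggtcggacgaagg
Zfp281: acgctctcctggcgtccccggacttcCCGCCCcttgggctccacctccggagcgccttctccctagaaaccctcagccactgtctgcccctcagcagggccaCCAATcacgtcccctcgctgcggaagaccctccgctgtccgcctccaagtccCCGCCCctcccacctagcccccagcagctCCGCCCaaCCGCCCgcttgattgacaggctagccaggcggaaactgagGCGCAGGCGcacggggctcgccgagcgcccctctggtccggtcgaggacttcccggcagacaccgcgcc
Zfp46: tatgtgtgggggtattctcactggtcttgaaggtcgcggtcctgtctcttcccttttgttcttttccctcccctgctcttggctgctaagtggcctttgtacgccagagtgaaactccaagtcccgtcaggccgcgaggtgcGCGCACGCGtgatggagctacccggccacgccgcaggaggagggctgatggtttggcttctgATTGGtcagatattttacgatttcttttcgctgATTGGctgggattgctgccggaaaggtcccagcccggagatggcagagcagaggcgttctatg
Zfp42: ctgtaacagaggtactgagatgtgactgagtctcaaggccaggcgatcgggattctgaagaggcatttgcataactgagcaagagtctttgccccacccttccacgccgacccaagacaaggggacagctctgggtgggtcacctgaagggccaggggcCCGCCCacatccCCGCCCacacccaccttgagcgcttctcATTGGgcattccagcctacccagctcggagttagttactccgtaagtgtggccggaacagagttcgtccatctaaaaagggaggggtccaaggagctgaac
The 5 promoters of called genes were covered by a region in all 10 libraries and that of Zfp42 in 0. Zfp281 held 27 CpG dinucleotides in its window, Zfp91 24, Zfp36 21, Zfp143 and Zfp46 18 each, and Zfp42 11. A match on the opposite strand appears in capitals as its reverse complement.

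Across the family, 130 members had at least 1 such promoter entry and 28 had none. For a gene with several entries, the window covered in the most libraries was taken. The window was covered in all 10 libraries for 62 of the 130 (47.7%), in some libraries for 53 and in 0 for 15 (11.5%). Over the 16457 autosomal genes with an entry these shares were 30.2% in all 10 and 46.1% in 0. The median Zfp window held 15 CpG, against 14 over all genes. Among windows covered in all 10 libraries the median was 15 CpG for Zfp genes against 22 for all genes, so marked Zfp promoters had fewer CpG than marked promoters at large, while those never covered had 10 against 4.

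The motif content of the Zfp windows was set beside that of all 16457 windows of the same length, on both strands. The ZNF143 motif (ACTACAANT), named after the human counterpart of Zfp143, was in 8.46% of Zfp windows against 2.23% of all windows. The ETS motif (CCGGAAGT) was in 13.8% of Zfp windows against 5.52%, and the NRF1 motif in 15.4% against 9.15%. The YY1 motif (AAGATGGCG) was in 4.62% against 1.97%, and the cyclic AMP response element (TGACGTCA) in 4.62% against 2.43%. These motifs were thus found in a larger share of Zfp windows than of all windows. The TATA box (TATAAA) was in 8.46% of Zfp windows against 13.4%, the GC box in 43.1% against 47.9%, the E-box of MYC (CACGTG) in 5.38% against 8.01% and the CCAAT box in 42.3% against 38.7%. No motif contains the letters of another, although matches can overlap. Among windows covered in all 10 libraries most contrasts were narrower, with the ETS motif in 11.3% of Zfp windows against 10.1%, NRF1 in 16.1% against 16.0% and ZNF143 in 6.45% (4 of 62) against 3.40%. Wider there were the contrasts of the GC box (38.7% against 65.1%), the E-box of MYC (3.23% against 11.3%) and the CCAAT box (48.4% against 37.6%). The TATA box was not in a smaller share of the covered Zfp windows, with 8.06% (5 of 62) against 7.48%. A match is a description of letters and does not show that a factor binds there.

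A larger share of Zfp genes than of all genes carried the mark. Of the 158 members, 77 (48.7%) were called in all 10 libraries, 56 (35.4%) in 1 to 9 and 25 (15.8%) in 0. Over all 20665 genes these shares were 35.03%, 20.3% and 44.7%. Of the 68 members that were called in all 10 libraries and have a promoter entry, 67 had the region at the 5′ end in all 10, and 57 had none at the 3′ end in any library. In these genes the mark lay at the promoter end. Another gene lay within reach of the same region in all 10 libraries for 13 of the 77, and for 57 no other gene shared a region in any library.

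**Figure D1:**
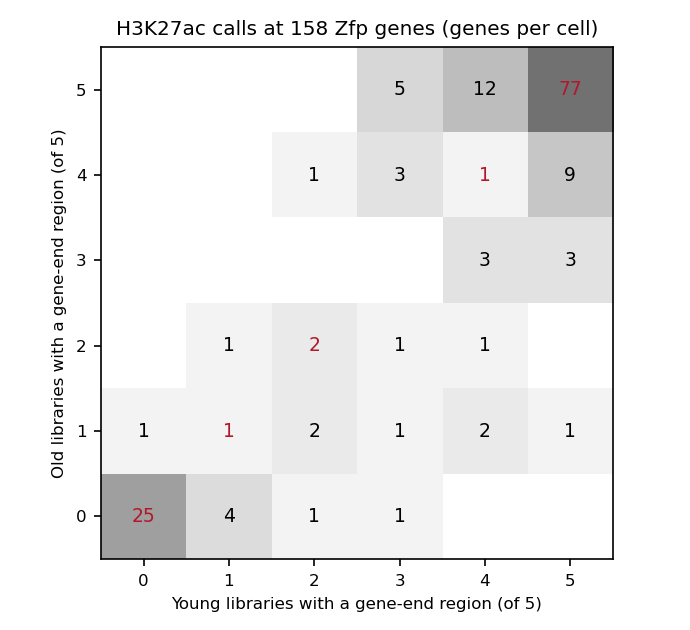
Number of old libraries (vertical axis, 0 to 5) and young libraries (horizontal axis, 0 to 5) with a region within 1 kb of a gene end, for the 158 Zfp genes; each cell gives its number of genes, darker for more, and red numbers mark equal counts in both ages. The corners hold 77 genes called in all 10 libraries and 25 called in 0, and the largest departure from the diagonal is the gene at 1 old and 5 young libraries.

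The 25 members with no gene-end region include several with known roles outside the adult liver cell. Zfp42 (Rex1), a marker of pluripotent stem cells, and Zfp57, which with Zfp445 protects imprinted marks in the early embryo, had no region at their ends or at an annotated start in any library. Zfp423, which is known for specifying fat cell precursors, had none at its ends but a region at an annotated internal start in 8 libraries. In all, 8 of the 19 such members with a promoter entry had a region at an annotated start inside the gene, in 10 libraries for Zfp217, Zfp229 and Zfp458, 9 for Zfp109 and Zfp59, 8 for Zfp93 and Zfp423, and 1 for Zfp61. The other 11 (Zfp14, Zfp37, Zfp42, Zfp57, Zfp239, Zfp287, Zfp345, Zfp352, Zfp365, Zfp459 and Zfp488) had none, and 6 (Zfp286, Zfp366, Zfp397, Zfp462, Zfp469 and Zfp474) have no promoter entry. Of these 6, Zfp397 alone had a region within 2 kb of a gene end, in 9 libraries. A gene without a call may still carry some of the mark, since the smallest called regions held 6.43 to 10.3 scaled tags, close to the calling threshold.

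The family was split by position, since many members lie beside relatives. Of the 86 members with another Zfp gene of any number within 100 kb, 36 (41.9%) were called in all 10 libraries, 37 in some and 13 in 0. Of the 72 with none so near, 41 (56.9%) were called in all 10, 19 in some and 12 in 0. The tested clustered genes had a median of 153 scaled tags, against 273 for the tested isolated genes. Chromosome 7 held 38 members, of which 15 were called in all 10 libraries and 5 in 0. Chromosome 13 held 20 with 9 in all 10, and chromosome 17 held 16 with 9. How tags that match several near-identical cluster members were placed is not given in the sources used here, and the level of clustered genes is uncertain for that reason.

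The number of Zfp genes called per library was 115, 121, 115, 113 and 98 in old libraries 1 to 5, and 100, 123, 104, 126 and 124 in young libraries 1 to 5. Old libraries averaged 112.4 ± 8.59 and young libraries 115.4 ± 12.4 (SD, n = 5 each), or 71.1% and 73.0% of the family, beside 47.7% and 47.1% of all genes. The ages overlapped widely, and the difference of −3 genes was smaller than either SD and was 0.6 without old library 5. Counts followed the library more than the age: the 3 lowest, old 5, young 1 and young 3, were also the 3 libraries with the fewest genes called overall.

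The summed scaled tags at Zfp gene ends were 22686, 23699, 22440, 19547 and 16569 in old libraries, and 22360, 31285, 23257, 31877 and 23874 in young libraries. Their means were 20988 ± 2913 in old and 26531 ± 4646 in young libraries (SD, n = 5 each). The lower sum in old libraries was shared with other genes, because the Zfp share of the tags at all gene ends was 0.882 ± 0.0151% in old and 0.856 ± 0.0232% in young libraries. The called length summed to 227 ± 29.9 kb in old and 250.3 ± 43.0 kb in young libraries, which was 0.886 ± 0.0187% and 0.868 ± 0.0382% of that of all gene ends. Per kb of called length, Zfp genes held 92.4 ± 6.29 scaled tags in old and 107 ± 16.4 in young libraries, beside 92.9 and 108 over all gene ends. No test was made of these sums, since the members were chosen with earlier results known.

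**Figure D2:**
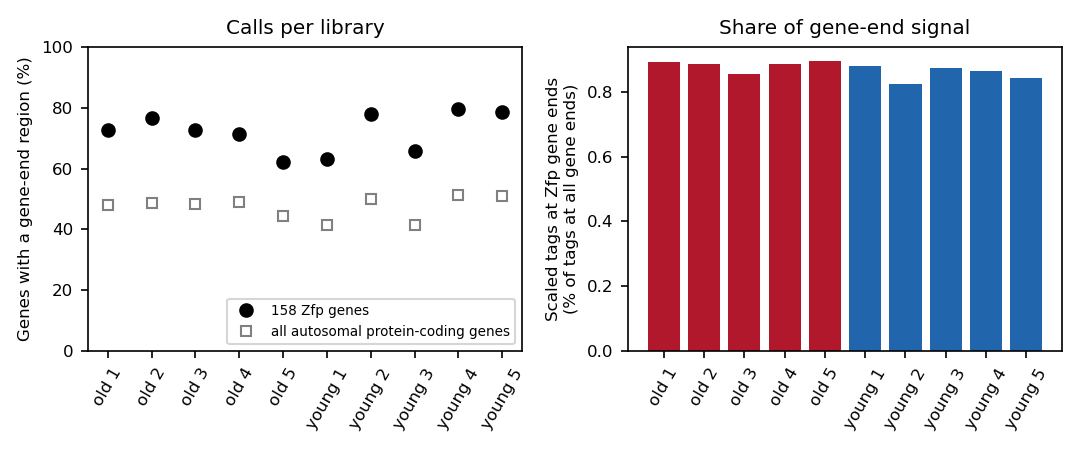
Left, percent of genes with a region within 1 kb of a gene end in each library, for the 158 Zfp genes (black circles) and all 20665 autosomal protein-coding genes (grey squares). Right, scaled tags at Zfp gene ends as a percent of those at all gene ends, old libraries in red and young in blue; Zfp genes lie above all genes in every library, and the shares span 0.824 to 0.893% with overlapping ages.

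Calls at single genes differed little by age. Of the 133 members called in at least 1 library, 81 were called in equal numbers of old and young libraries, 23 in more old (14.6% of the family) and 29 in more young libraries (18.4%). Over all genes 9.99% were called in more old and 6.88% in more young libraries, which leans the other way. With merged regions the Zfp counts were 22 in more old and 25 in more young libraries, of 133 genes. Over all genes they were 1885 in more old and 1232 in more young libraries, of 11424. This lean was not tested. Without merging, the counts differed by 1 library for 36 genes, by 2 for 12 and by 3 or more for 4 (2.53% of the family, against 0.711% of all genes). With merged regions they differed by 3 or more for 2 Zfp genes and for 137 of all genes. In a two-sided Fisher exact test per gene, with 0.00794 as the smallest possible p, 1 Zfp gene (0.752% of 133) fell below an unadjusted 0.05, with fewer old libraries. Over all 11424 genes called at least once, 0.131% (15 genes) did so with fewer old and 0.0613% with more old libraries, and none of the 11424 passed after Benjamini-Hochberg adjustment.

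The gene was Zfp46 (chromosome 4, 136284168 to 136293942), which had 0, 152.3, 0, 0 and 0 scaled tags in old libraries and 164.2, 165.9, 86.5, 196.3 and 136.1 in young libraries (exact p = 0.0476 unadjusted). Within 1 kb of the annotated start printed above, which lies inside the gene, it was nevertheless called in all 10 libraries, and it also was when the regions of the 10 lists were merged. Zfp235 had 0, 0, 88.7, 0 and 0 scaled tags in old and 121.7, 133.0, 131.4, 0 and 104.9 in young libraries, and its merged region likewise held a call in all 10. At both genes the old and young libraries differed in where a region ended relative to the gene end, not in whether a region was called nearby. Zfp451, which encodes a SUMO ligase, and Zfp212 were called in 5 old libraries and in 3 young ones, with young 1 and young 3 at 0, and the merged region of Zfp451 was called in all 10.

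Of the 4 genes apart by 3 or more libraries, the other 2, Zfp105 and Zfp97, kept their difference on merged regions of either end, at low levels. At Zfp105 a merged region at the 5′ end was called in 4 libraries and a separate one at the 3′ end in 2. The difference at Zfp105 thus pools both ends. Zfp105 had 27 scaled tags in old library 4 and 0 in the other 4 old libraries, against 0, 29.9, 17, 22.3 and 10.3 in young libraries. Zfp97 had 0 in all 5 old libraries, against 0, 9.8, 0, 11.2 and 7.1 in young libraries. Each of the 3 called regions at Zfp97 was a single 500 bp peak close to the calling threshold, and 0 there does not show that the mark was absent.

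Levels at the 77 members called in all 10 libraries spanned a wide range. Mean scaled tags ran from 32.1 at Zfp72 to 1813 at Zfp36, with a median of 198, against 274 over the 7239 genes. The median member stood at the 32.2 percentile of the 7239, and 51 of the 77 were in the lower 5 of 10 equal groups by level. Relative levels averaged 0.123 to 6.75 with a median of 0.747, and 29 members lay above 1. Summed tags rise with called length, which differed between genes, so this order is one of total signal at the gene ends and not of signal per length.

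**Figure D3:**
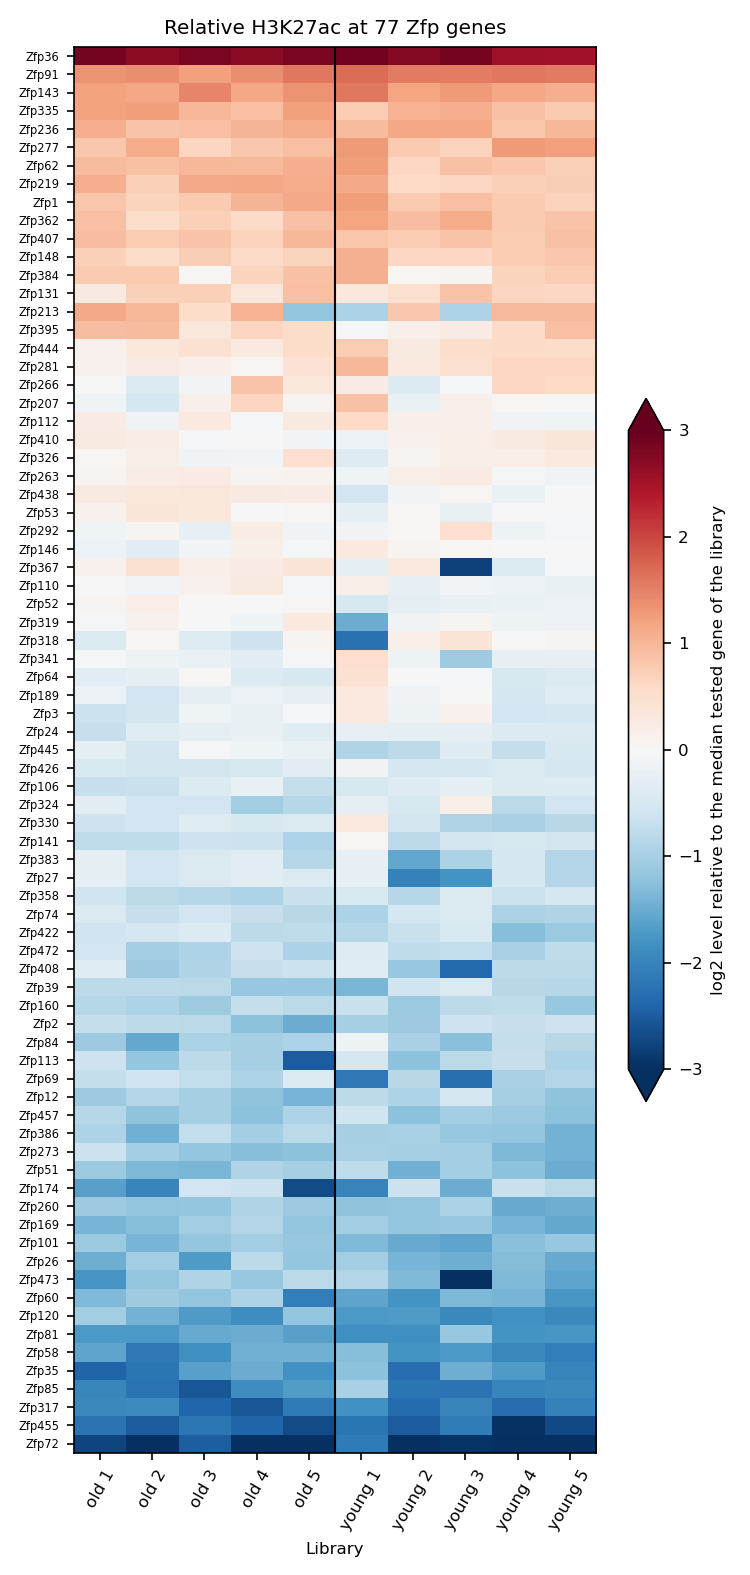
Relative level (log2, colour; values beyond −3 and 3 take the end colours) of the 77 Zfp genes called in all 10 libraries, one row per gene in order of mean level and one column per library, old libraries left of the black line and young libraries right of it. Red cells lie above the median tested gene of the library and blue cells below it. Zfp36 stands above the rest in every library. Among rows with single low libraries are Zfp367 (young library 3) and Zfp213 (old library 5 and young libraries 1 and 3).

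The level of no Zfp gene passed the test between old and young libraries. By limma with Benjamini-Hochberg adjustment over all 7239 genes, 0 of 77 members passed an adjusted p of 0.05, and the smallest was 0.193 at Zfp438. The background was low as well, since 0.0691% of all genes passed (5 genes), 0.0276% with higher and 0.0414% with lower levels in old libraries. At an unadjusted p below 0.05 there were 10 Zfp genes, 7 higher and 3 lower in old libraries, which is 12.99% of the 77. This was near the background of 13.1% of all genes, 6.19% higher and 6.93% lower. By edgeR and by DESeq2 on the unscaled tags, rounded to whole numbers, 0 Zfp genes passed, where 0.0829% and 2.13% of all genes did. The 10 were Zfp438, Zfp52, Zfp53, Zfp69, Zfp27, Zfp445 and Zfp219 with higher and Zfp281, Zfp91 and Zfp362 with lower values in old libraries.

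As a list, the differences of the members centred near 0, like those of all genes. The log2 difference, old minus young, was above 0 for 42 and below 0 for 35 of the 77, with a median of 0.03 and quartiles of −0.15 and 0.18. Over all 7239 genes the median was 0.01, the quartiles were −0.14 and 0.17, and 51.6% lay above 0. After the median of other genes in the same of 10 groups by level was subtracted from each member, the family median was −0.004. Differences were below 0.2 in size for 50 of the 77 (64.9%, against 59.6% of all genes) and above 0.4 for 8 (10.4%, against 14.6%). The estimate with 2 SE on either side stayed within a log2 difference of 1 for 70 members, and reached beyond it for Zfp27, Zfp69, Zfp113, Zfp174, Zfp213, Zfp367 and Zfp473.

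These differences are relative to the median gene end, on which each library was centred. Without centring, the median over all 7239 genes was −0.36 and that of the Zfp genes −0.34, 69 of 77 members were lower in old libraries, and 8 passed an adjusted p of 0.05 by limma, all lower, where 11.9% of all genes passed lower and 0.0691% higher. In scaled tags, 9 members (11.7%) had every old library below every young one, against 12% of all genes, and 0 had every old library above, against 0.0414%. The lower values moved with the lower IP efficiency of old libraries. With IP efficiency as a covariate of the centred fit, 0 members passed and the family median was −0.04, and its part in the uncentred values was not tested.

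**Figure D4:**
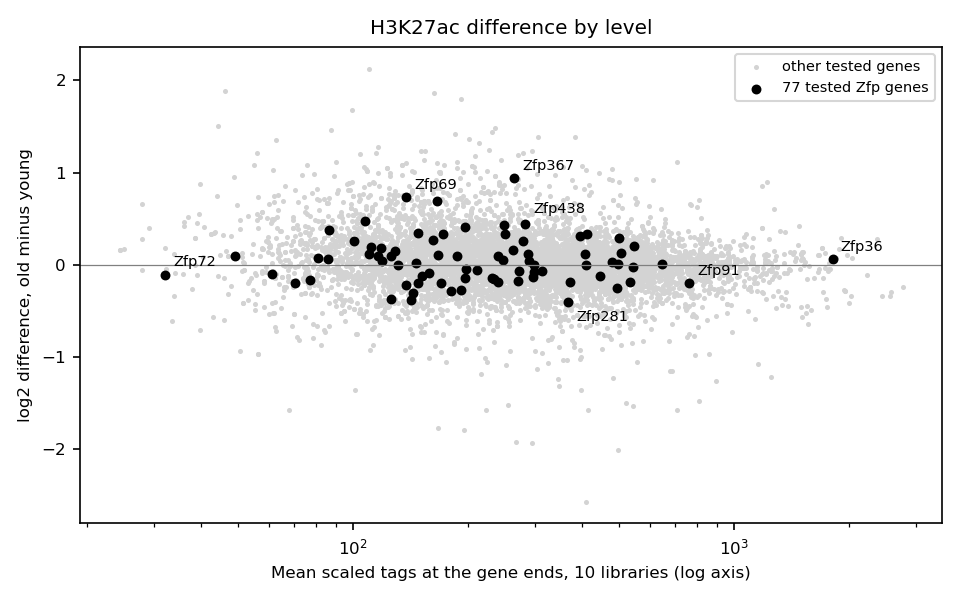
Log2 difference in H3K27ac, old minus young (vertical axis), against mean scaled tags at the gene ends over 10 libraries (horizontal axis, log scale), for the 77 tested Zfp genes (black) and the other tested genes (grey). The Zfp genes lie between −0.41 and 0.94 inside the grey cloud, with Zfp36 far to the right at 1813 scaled tags.

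Zfp36 encodes tristetraprolin, which binds AU-rich elements of messenger RNAs such as that of tumour necrosis factor and promotes their decay. It lies on chromosome 7, 28376784 to 28379228, and had the highest level of the family in every library. Its relative levels were 7.28, 6.42, 7.07, 6.49 and 7.11 in old libraries and 7.45, 6.73, 7.34, 5.82 and 5.75 in young libraries. The old values fall within the range of the young ones, and the log2 difference was 0.06 ± 0.11 (SE; limma adjusted p = 0.835). The same regions lay at both ends of the gene and within 1 kb of an end of Med29 and Plekhg2, with a mean length of 10839 bp in old and 11978 bp in young libraries, so the signal cannot be assigned to Zfp36 alone.

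Regulators of transcription with high levels followed. Zfp91, described as a ubiquitin ligase of the noncanonical NF-κB pathway, had relative levels of 2.55, 2.61, 2.34, 2.61 and 2.98 in old and 3.20, 2.95, 2.90, 3.01 and 2.93 in young libraries. Old libraries were lower except library 5, which lay inside the young range, and the log2 difference was −0.20 ± 0.08 (SE; limma adjusted p = 0.320). The region of Zfp91 is shared with Lpxn in all 10 libraries. Zfp143, an activator that binds many promoters of housekeeping and small nuclear RNA genes, had 2.30, 2.23, 2.74, 2.25 and 2.56 in old and 2.97, 2.29, 2.41, 2.25 and 2.14 in young libraries. The ages overlapped fully, with a log2 difference of 0.01 ± 0.11 (SE; limma adjusted p = 0.977). This difference turned to −0.08 at the annotated start alone. A region beyond the 3′ end of Zfp143 entered the sum in old libraries 2 and 3 alone (72.6 and 122.0 scaled tags), where it reached within 1 kb of that end. Merged over the lists, this 3′ region held a call in all 10 libraries, so the libraries differed in its border, not in whether it was called. Zfp335, a transcription factor needed in brain development, had 2.31, 2.38, 2.00, 1.87 and 2.34 in old and 1.70, 2.06, 2.14, 1.85 and 1.72 in young libraries (0.20 ± 0.10, SE; limma adjusted p = 0.415).

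Zfp148, which binds GC-rich promoter elements, had relative levels of 1.65, 1.46, 1.68, 1.49 and 1.60 in old and 2.10, 1.54, 1.54, 1.69 and 1.75 in young libraries, with overlapping ages and a log2 difference of −0.12 (limma adjusted p = 0.611). Zfp410, which activates the gene of the chromatin remodeller Chd4, had 1.21, 1.16, 0.98, 1.01 and 0.95 in old and 0.89, 1.10, 1.14, 1.21 and 1.29 in young libraries. Its region is shared with Ptgr2 in all 10 libraries, its difference was −0.08 (limma adjusted p = 0.808), and that of Chd4 itself 0.37 ± 0.22 (SE; limma adjusted p = 0.473; 0.02 per kb of called length). Zfp207 (BuGZ), a spindle protein that loads Bub3 on kinetochores, had 0.91, 0.70, 1.12, 1.56 and 1.06 in old and 1.85, 0.87, 1.11, 1.04 and 1.00 in young libraries. Young library 1 lay apart from the other young ones at Zfp207, and the difference was −0.13 (limma adjusted p = 0.834).

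The old and young relative levels did not overlap at 2 of the 77 members, Zfp52 and Zfp438, both higher in old libraries (2.60% of the 77, against 3.54% of all genes in either direction, 1.92% higher and 1.62% lower). Zfp438 (chromosome 18, 5210027 to 5334826) had 1.20, 1.24, 1.27, 1.20 and 1.18 in old and 0.67, 0.94, 1.04, 0.87 and 1.01 in young libraries. Its log2 difference of 0.44 ± 0.12 (SE) did not pass (limma adjusted p = 0.193). Zfp52 (chromosome 17, 21533725 to 21563362) had 1.06, 1.15, 1.01, 1.00 and 1.02 in old and 0.71, 0.83, 0.86, 0.87 and 0.89 in young libraries (0.34 ± 0.09, SE; limma adjusted p = 0.208). The region (merged over the lists, chr17:21531075-21533525) covers the 3′ end of Zfp53 at 21533201 and ends before the first base of Zfp52. It lay within 1 kb of both genes in all 10 libraries, so Zfp53 is not a second observation. The annotated start of Zfp52 in the promoter table (window chr17:21535289-21535588) lies inside the gene, and a region covered that window in 1 library. The difference at Zfp52 is thus not one at that start. In scaled tags Zfp438 and Zfp52 each overlapped between ages. Without centring the difference was 0.07 at Zfp438 and −0.04 at Zfp52, and per kb of called length it was 0.14 at Zfp438 and 0.15 at Zfp52.

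Zfp445, the partner of Zfp57 in imprint protection, had relative levels of 0.82, 0.68, 0.97, 0.92 and 0.87 in old and 0.54, 0.58, 0.77, 0.61 and 0.72 in young libraries, a log2 difference of 0.41 ± 0.14 (SE; limma adjusted p = 0.258). Old libraries were mostly higher, with 0.68 in old library 2 inside the young range. The region at the 5′ end (merged over the lists, chr9:122886043-122888810) is shared with Zkscan7 in all 10 libraries, and the difference was 0.46 for regions covering the gene end, 0.28 per kb and 0.03 without centring. The annotated start of Zfp445 in the promoter table (window chr9:122865957-122866256) lies inside the gene, and the separate region there differed by −0.02.

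The largest differences in either direction were chosen after their values were seen. Zfp281, a regulator of pluripotency that binds GC-rich promoters, had relative levels of 1.09, 1.19, 1.11, 1.03 and 1.34 in old and 1.98, 1.23, 1.40, 1.55 and 1.54 in young libraries (−0.41 ± 0.13, SE; limma adjusted p = 0.246). Its scaled tags did not overlap, with 270.5, 312.8, 281.1, 223.2 and 254.9 in old and 502.7, 450.4, 388.2, 558.5 and 414.0 in young libraries. The called length averaged 2297 bp in old and 3892 bp in young libraries, and per kb the difference was 0.14. It was 4669, 4595 and 5421 bp in young libraries 1, 4 and 5, and 2466 and 2311 bp in young libraries 2 and 3. A 3′ region entered the sum in 2 old libraries (2 and 5) and 3 young libraries (1, 4 and 5). That region held at most 19.8 scaled tags in old and 59.7 in young libraries. At the 5′ end alone scaled tags did not overlap either, with 223.2 to 293.0 in old and 363.2 to 498.8 in young libraries. The difference was −0.35 at annotated starts and −0.43 on merged regions (limma adjusted p of 0.232 and 0.083).

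Zfp367 had relative levels of 1.09, 1.38, 1.14, 1.18 and 1.32 in old and 0.82, 1.22, 0.14, 0.74 and 0.98 in young libraries, the widest difference of the family at 0.94 ± 0.48 (SE; limma adjusted p = 0.415). It rests in large part on young library 3, where the called length was 754 bp against 2473 to 3176 bp in the other 9 libraries, and without that library the difference was 0.40. It was 0.37 per kb and 0.43 within 2 kb of a gene end. On merged regions it was 0.86, at annotated starts 0.94 and with IP efficiency as a covariate 1.37. Zfp69 differed by 0.73 ± 0.30 (SE; limma adjusted p = 0.321), with young libraries 1 and 3 at 0.23 and 0.21 and every old library above 0.5. The difference at Zfp69 was 0.22 per kb, 0.76 within 2 kb, 0.66 on merged regions and 1.05 with IP efficiency as a covariate. Zfp27 differed by 0.69 ± 0.31 (SE; limma adjusted p = 0.378), with young libraries 2 and 3 low. The called length of Zfp27 was 1470 and 1452 bp in those libraries against 2651 to 4127 bp in the other 8. The difference at Zfp27 was 0.15 per kb, 0.14 within 2 kb, 0.07 on merged regions and 0.69 at annotated starts. A region of Zfp27 is shared with Zfp383 in 8 libraries, so the signal cannot be assigned to Zfp27 alone. On the lower side, Zfp113 and Zfp174 both had −0.38, with SE of 0.32 and 0.42 (limma adjusted p of 0.625 and 0.727). At Zfp113 and Zfp174, old library 5 had a called length of 500 bp, a single peak, and the differences per kb were 0.02 and 0.14. Without old library 5 they were −0.055 at Zfp113 and −0.079 at Zfp174. A region of Zfp174 is shared with Naa60 in 6 libraries.

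The 3 members of lowest level among the 77 were Zfp72, Zfp455 and Zfp317. Zfp72 had relative levels of 0.15, 0.08, 0.18, 0.08 and 0.11 in old and 0.23, 0.09, 0.13, 0.12 and 0.08 in young libraries, from 12.5 to 50.5 unscaled tags. At that depth its difference of −0.11 (limma adjusted p = 0.924) could not be told from 0. Zfp455 had a difference of 0.09 (limma adjusted p = 0.886) and Zfp317 one of −0.10 (limma adjusted p = 0.857), and each had overlapping ages.

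**Figure D5:**
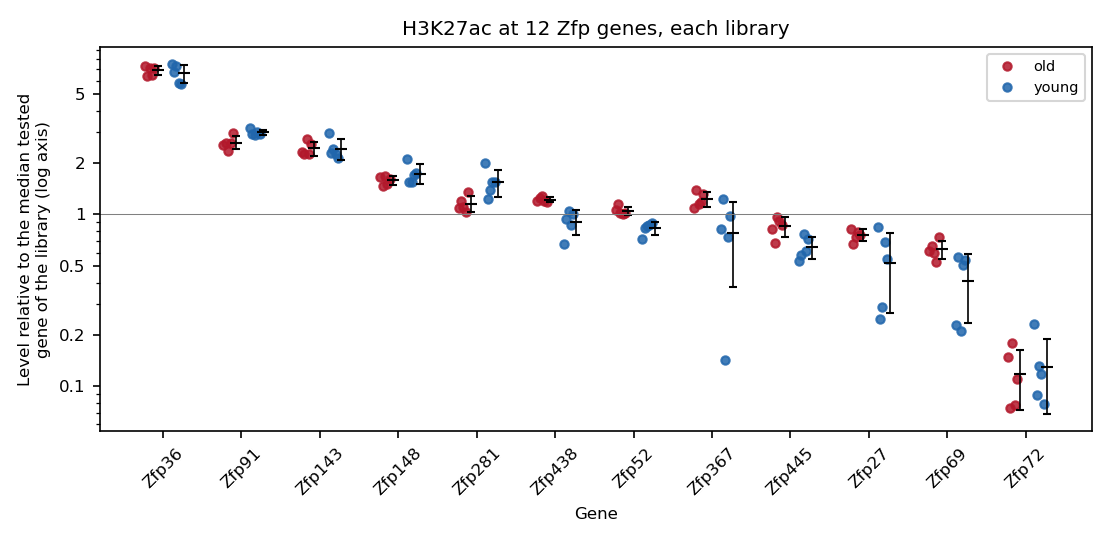
Relative level (log axis; 1 is the median tested gene of the library) of 12 Zfp genes in each of 5 old (red) and 5 young (blue) libraries; black marks are the mean with SD, old left of young. Old and young points are apart at Zfp438 and Zfp52, the single low point at Zfp367 is young library 3 (0.14), and Zfp36 lies highest.

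The genes of proteins that work with KRAB zinc fingers were looked at beside the family. Of 26 genes of the Trim28 corepressor and its silencing partners, 24 were called in at least 1 library and 15 in all 10. Over all genes, 55.3% were called in at least 1 library and 35.03% in all 10. Trim28 was called in 4 old and 3 young libraries and Setdb1 in 5 old and 4 young libraries. Of the 15 tested, 7 were higher and 8 lower in old libraries, with a median log2 difference of −0.02, 0 past the threshold and a smallest limma adjusted p of 0.435. The largest values were 0.45 ± 0.24 at Daxx, a histone chaperone, and that of Chd4 given above.

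Zfp genes with a number of 500 or more, which the symbol limit leaves out, were called in all 10 libraries in 101 of 202 cases. Of those 101, 68 were higher and 33 lower in old libraries, with a median of 0.15 and 0 past the threshold (smallest limma adjusted p = 0.177). The widest differences were 1.87 ± 0.55 at Zfp982 and −0.96 ± 0.45 at Zfp786 (SE; limma adjusted p of 0.224 and 0.389), which were 0.91 and 0.03 per kb. Zbtb, Zkscan and Zscan genes, related zinc finger families, were tested at 41 of 67, with 19 higher, a median of −0.03, 0 past the threshold and a smallest limma adjusted p of 0.152. The widest of these were 1.01 ± 0.57 at Zbtb17 and 0.75 ± 0.62 at Zbtb12 (SE; limma adjusted p of 0.464 and 0.621), which were 0.70 and −0.06 per kb. At the limit itself, the last members inside it, Zfp488 and Zfp493, were called in 0 and 9 libraries, and the first genes outside, Zfp503 and Zfp507, in 1 and 10.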

How the data were processed

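H3K27ac region lists of 10 libraries (5 old, 5 young) were used. The 10 input samples entered only through the input value inside those lists. The authors ran HOMER in histone mode on every library separately with its matched input, per the file headers: 500 bp peaks at least 1000 bp apart were joined into regions with 4-fold more tags than input at a Poisson p of 1e-04. The submitters' processing notes name mm10. Aligner and HOMER version: not given in the sources used here. Each region's normalized tag count is a signal, which the authors scaled to 10000000 tags in each library. Its unscaled tags, deposited in steps of 0.5, were taken for expected counts and rounded to whole numbers for edgeR and DESeq2. The deposited score served only to rank regions for equal list lengths, the control tags are a signal scaled by the authors to each library, the fold over input is the authors' ratio, and the deposited region size in bp gave the called length.

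Regions within 1 kb of either end of an autosomal protein-coding gene (RefSeq, GRCm38.p6) were summed per gene and library. The 7239 genes called in all 10 libraries were tested with limma 3.58.1 with an intensity trend, on log2(scaled tags + 1), each library centred on the median of these genes, old minus young, with Benjamini-Hochberg adjustment at 0.05. That scale understates the change of weak genes. Calls were tested with two-sided Fisher exact tests. Alternatives used edgeR 4.0.16, DESeq2 1.42.0, other filters, distances and scalings. The limma step was tested on simulated data. Scripts ran in R 4.3.3 and Python 3.11.15, with pandas 2.3.3, numpy 2.4.6, matplotlib 3.10.9 and scipy 1.17.1.

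The members and gene lists were chosen with earlier results of these data known. Genes named are those past the threshold, those whose ages do not overlap, the 4 highest and 3 lowest levels, the 6 largest differences in calls (ties by mean tags), genes of known role, and the largest 2 of each other list; others are said to be chosen after their values were seen. Protein classes were not made, since no protein sequences were used here.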

Additional observations from a re-analysis of the deposited data

Results flagged for a closer look

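Of 38 groups of 5 libraries at 19 named genes and 12 groups of whole-family values, 2 held a library far from the other 4 of its age, and chance alone marks about 1 in 20 such groups. The Zfp share of all gene-end tags was 0.856% in old library 3, while the other old libraries lay between 0.884 and 0.893%. The relative level of Zfp207 was 1.85 in young library 1, while the other young libraries lay between 0.874 and 1.11. The difference at Zfp207 is given with and without each library below.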

How the results depend on the processing

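No Zfp gene passed the threshold under any alternative run except without centring of the libraries, where 8 did. The number of all genes past the threshold was 5, and was 864 without centring, 154 by DESeq2, 134 of 12550 regions when the lists were merged, 15 for regions covering the gene end, 13 at annotated starts, 9 within 2 kb, 9 with a pseudocount of 10, 8 after cyclic loess, 3 for genes called in at least 5 libraries, 1 with IP efficiency as a covariate and 0 on tags per kb. It ranged from 3 to 16 when each library was left out in turn, with 16 without young 1, 9 without old 1, 8 without young 5 and 3 without old 4, old 5 or young 2. The replicate numbers of old and young libraries did not pair them (correlations of deviations from −0.05 to 0.14, and 1 of 5 old libraries matched its own number best), and with the replicate block 1 gene of all and 0 Zfp genes passed. Cyclic loess and merged regions were chosen after seeing the data.

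The level-matched median of −0.004 was −0.087 for genes called in at least 5 libraries and −0.046 with IP efficiency as a covariate. The family median of 0.03 was −0.34 without centring and −0.076 on merged regions, where all gene ends had −0.06. Leaving out single libraries gave −0.001 (without old 5) to 0.075 (without young 1) for it, −0.036 to 0.041 for the level-matched median, −6.85 (without young 1) to 0.6 (without old 5) for the difference in called genes, −6585 to −4206 in summed tags and −37.0 to −10.4 in kb of called length. The direction turned, with the cause not tested, without centring at Zfp52 (−0.036), Zfp335 (−0.17), Zfp143 (−0.36), Zfp36 (−0.31) and Zfp455 (−0.28), and on tags per kb at Zfp143 (−0.37), Zfp72 (0.0068), Zfp207 (0.11), Zfp281 (0.14), Zfp113 (0.023) and Zfp174 (0.14). Zfp143, at 0.01, also gave −0.040 with the filter at 5 libraries, −0.019 at 8-fold over input, −0.060 for covered ends, −0.054 within 2 kb, −0.083 at annotated starts, −0.041 with IP efficiency and −0.16 on merged regions. Zfp445 gave −0.020 at annotated starts and Zfp174 0.20 with IP efficiency. Over single libraries left out, Zfp143 ranged from −0.037 to 0.085, Zfp72 from −0.28 to 0.12, Zfp113 from −0.53 to −0.055 (without old 5), Zfp174 from −0.61 to −0.079 (without old 5), Zfp27 from 0.46 to 0.90, Zfp207 from −0.28 to 0.041, Zfp317 from −0.17 to 4.25e-05 and Zfp455 from −0.024 to 0.19. Without centring, Zfp91 (−0.57, limma adjusted p = 0.0372), Zfp148 (−0.49, 0.0497) and Zfp281 (−0.78, 0.0302) passed.

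Levels near the calling threshold limit what can be seen: Zfp72 rests on 12.5 to 50.5 unscaled tags per library, and members not called in all 10 libraries were tested for level only in the fit of genes called in at least 5, where 0 of 119 members passed. Region borders differ between libraries, so sums of tags also carry the called length.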
